A study of Arabidopsis thaliana with 12 samples.

Results

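Fibrillins, also called plastoglobulins, are nucleus-encoded plastid proteins that were first described as the coat of carotenoid-storing fibrils in chromoplasts. In chloroplasts they sit on plastoglobules, lipid droplets at the edges of the thylakoid membrane that hold plastoquinone, tocopherols and other prenyl lipids, and on the thylakoids themselves. Plastoglobules are known to grow in number and size under strong light, and fibrillins are regarded as their structural proteins. The genes described here are FBN2 (AT2G35490), FBN6 (AT5G19940) and FBN8 (AT2G46910) of Arabidopsis thaliana. The choice was made with earlier results of these data known. All are fibrillin loci that the array measured with a probe listed for a single gene. They are 3 of the 689 loci that had such a probe, on an array of 3439 probes, and FBN5 and FBN10, also measured in this way, are described with the rest of the family.

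RNA came from wild-type plants of the ecotype Columbia 0, and no mutant or transgene was involved. All plants had been kept at 4 °C under medium light for 24 h, which the submitters call photoinhibitory, a term for light that damages photosystem II. The 6 cold samples were taken at that point, and the 6 recovery samples after the plants had spent another 24 h at 20 °C under the same grade of light. No unstressed plants and no plants kept in the cold for the longer time are among the 12 samples, so the end of the cold and the passing of time cannot be told apart. The labels name no organ, age or growth stage. Of 6 green leaf markers listed, 1 had a probe of its own, LHCB1.5, an antenna protein of photosystem II, whose mean signal was 7.63 ± 0.392 (SD, n = 3) in the cold and 26.5 ± 3.03 in the recovery group. None of the 5 root and none of the 4 epidermis markers had one, so the make-up of the samples could not be checked against them.

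The table gives linear signals without a unit, from 0 to 100. Neighbouring sample numbers of a group (1 and 2, 3 and 4, 5 and 6) were averaged as 1 value, so n is 3 per group in every mean and test, and single samples are given as a range. Nothing in the labels assigns the samples to separate plants or cultures, so p-values reflect the spread among these 12 samples alone, part or all of which may be technical. The median signal of a sample lay between 0.276 and 0.315 in cold and between 0.0971 and 0.128 in recovery, a fall that affects any comparison of signals as deposited. Changes are therefore given as recovery minus cold of log2(signal + 0.0415) after quantile normalization, which makes the distribution of values the same in all samples. They place a gene relative to the other probes of the array. The added constant shrinks the log2 change of dim genes, and sizes for dim and bright genes also depended on the scaling, as given below. In total RNA, fewer cells of a type and less RNA per cell cannot be told apart.

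Relative to the other probes, the single-gene probes of FBN6 and FBN8 rose in recovery, and that of FBN2 did not pass the test, with a positive value. Probes listed with FBN2 or FBN8 and further fibrillin genes passed as lower, at -1.12 and -2.04, as described below. FBN6 gained 0.82 ± 0.25 and FBN8 0.68 ± 0.23 in log2 units (mean ± SE, n = 3 in each group), and FBN2 stood at 0.39 ± 0.18. All 3 values lay above the median probe, which was at 0.11. As deposited, all 3 signals were lower on average in recovery than in cold, and by less than the median signal of the array. Across the array, 21.4% of all probes passed as higher in recovery and 19.3% as lower (limma, Benjamini-Hochberg adjusted p under 0.05). The 2 of 3 genes higher are thus a small count against a common outcome. They are also the only 2 that passed as higher among the 5 fibrillin loci with a probe of their own. The green leaf marker LHCB1.5 moved the same way, by 1.44 ± 0.13 (adjusted p = 1.37e-05, limma); its part in the fibrillin values was not tested.

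FBN2 is a plastoglobule protein that, together with the closely related FBN1 proteins, has been tied to jasmonate synthesis during acclimation to strong light and cold. Its deposited signal in the 6 cold samples ran from 0.434 to 0.640 with a median of 0.587. In the 6 recovery samples it ran from 0.299 to 0.420 with a median of 0.345. Every recovery sample was thus below every cold sample, a separation that 49.2% of all probes showed in the same direction. The mean of 3 averaged pairs was 0.569 ± 0.0660 (SD) in the cold group and 0.348 ± 0.0440 in the recovery group, a ratio of 0.612.

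Set against the median probe of the same sample, FBN2 went the other way. It stood at 1.93 ± 0.298 times (SD, n = 3) the sample median in cold and at 3.23 ± 0.256 times in recovery, and the 6 recovery ratios, 2.80 to 3.65, all exceeded the 6 cold ratios, of which the highest was 2.30. Its place in the order of probes moved little: the percentile ran from 63.2 to 75.0 in cold and from 75.2 to 78.6 in recovery. The 2 ranges lay close together, and the highest cold sample stayed under the lowest recovery sample. After normalization, 19.0% of all probes lay higher in all 6 recovery samples. The fitted change of 0.39 had a 95% interval of -0.0088 to 0.79 and an adjusted p of 0.108 (limma). The call depended on the treatment of the samples. FBN2 passed as higher at 0.53 with samples centred on their medians (adjusted p = 0.0289), at 0.69 with scaling before the pseudocount (0.0116) and at 0.39 with all 12 samples as independent (0.0128), and it passed as lower, at -0.65, as deposited (0.00986).

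FBN6, a fibrillin of thylakoids and the plastid envelope, is needed by plants to acclimate to strong light. Its deposited signal in cold ran from 0.0794 to 0.214 with a median of 0.149. In recovery it ran from 0.0622 to 0.155 with a median of 0.107. These ranges overlap: 1 recovery sample lay below all cold samples and 2 cold samples above all recovery samples. The means were 0.154 ± 0.0201 and 0.110 ± 0.0392 (SD, n = 3).

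Within the samples FBN6 moved from the dimmer part of the array to its middle. In cold its percentile ran from 15.5 to 37.7 with a median of 29.6. In recovery it ran from 39.6 to 57.1 with a median of 51.1, and no recovery sample overlapped a cold one. After normalization FBN6 was also higher in all 6 recovery samples, as were 19.0% of all probes. The fitted change of 0.82 is 1.77-fold, with a 95% interval of 0.28 to 1.37 and an adjusted p of 0.0221 (limma). It exceeded the change of 84.3% of all probes. This fold is one of normalized values, whereas the deposited signal in recovery was 0.714 of that in cold. The size followed the pseudocount: 0.97 at the halved and 0.64 at the doubled value. The lowest cold signal, that of cold sample 1, was well under the other sample of its pair (0.195), and without it the change was 0.66 with an adjusted p of 0.0504. Leaving out any other single sample kept the call. As deposited the value was -0.37 and did not pass (adjusted p = 0.229).

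FBN8 is a core protein of plastoglobules whose own task is less well known. Its deposited signal in cold ran from 0.236 to 0.369 with a median of 0.280. In recovery it ran from 0.119 to 0.358 with a median of 0.190. Of the recovery samples 5 lay below every cold sample, and recovery sample 2, at 0.358, was within the cold range. The means were 0.294 ± 0.0629 and 0.205 ± 0.0713 (SD, n = 3).

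By its percentile FBN8 moved from the middle of the array to its upper part. The cold samples ran from 42.1 to 55.4 with a median of 50.3, and the recovery samples from 54.0 to 76.3 with a median of 66.0. The groups overlapped by recovery sample 6 alone, which lay under 2 of the cold samples. The fitted change of 0.68 is 1.604-fold in normalized values, with a 95% interval of 0.18 to 1.19 and an adjusted p of 0.0343 (limma). It was 0.74 at the halved and 0.59 at the doubled pseudocount. The call rested on few samples. It was lost without recovery sample 2 (0.59, adjusted p = 0.0580), 4 (0.65, 0.0528) or 5 (0.58, 0.1003), and as deposited the value was -0.49 (0.136).

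**Figure D1:**
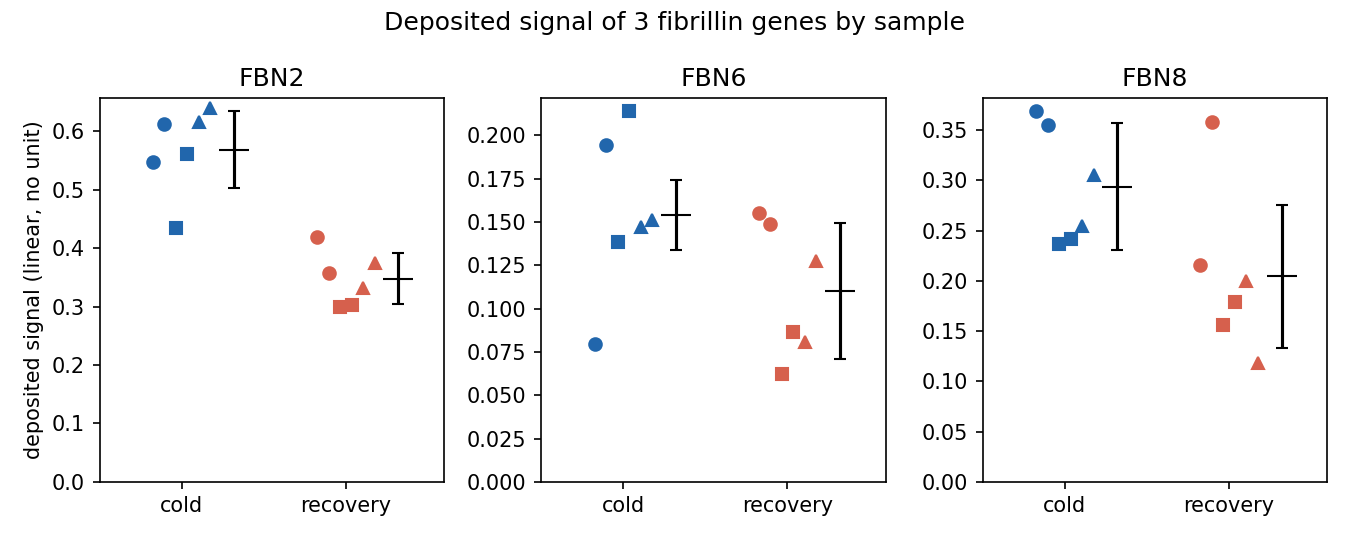
Deposited signal (linear, no unit; each panel has its own axis from 0) of FBN2, FBN6 and FBN8 in 6 cold samples (blue) and 6 recovery samples (red); circles, squares and triangles are samples 1 and 2, 3 and 4, and 5 and 6, and the black bars are the mean and SD of the 3 averaged pairs. FBN2 is separated, 0.434 to 0.640 against 0.299 to 0.420, as are 49.2% of all probes in the same direction, whereas FBN6 and FBN8 overlap.

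**Figure D2:**
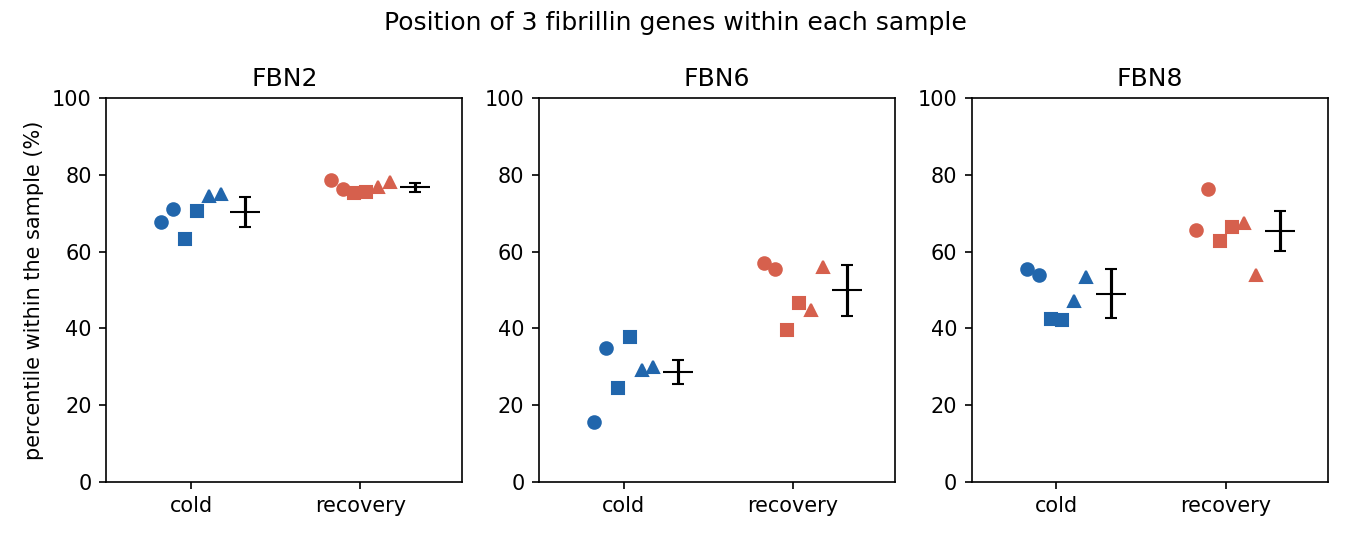
Percentile of the same 3 genes among all 3439 probes of each sample (%, 0 is the dimmest probe), with colours, symbols and bars as in the plot of signals. FBN6 moves from a median of 29.6 to 51.1, FBN8 from 50.3 to 66.0, and FBN2 from 70.8 to 76.5.

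The plot of deposited signals and that of percentiles show the same samples, and in all 3 genes the mean signal is lower and the mean percentile higher in recovery. The percentile rose on average by 6.39 points for FBN2, 21.3 for FBN6 and 16.4 for FBN8. How far the 3 genes differ from one another was asked of the difference between 2 genes within each sample. The change of FBN2 was smaller than that of FBN6 by 0.43 and smaller than that of FBN8 by 0.29 on the log2 scale, and that of FBN6 was larger than that of FBN8 by 0.14. Exact two-sided permutation tests gave adjusted p-values of 0.3, 0.3 and 0.6 over the 3 comparisons, where 3 values against 3 cannot give a p below 0.1. A different response among the 3 genes was therefore not shown, and a common one was not shown either. Scaled before the pseudocount, the 3 changes were 0.69, 0.73 and 0.76, and the order of FBN6 and FBN8 turned.

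**Figure D3:**
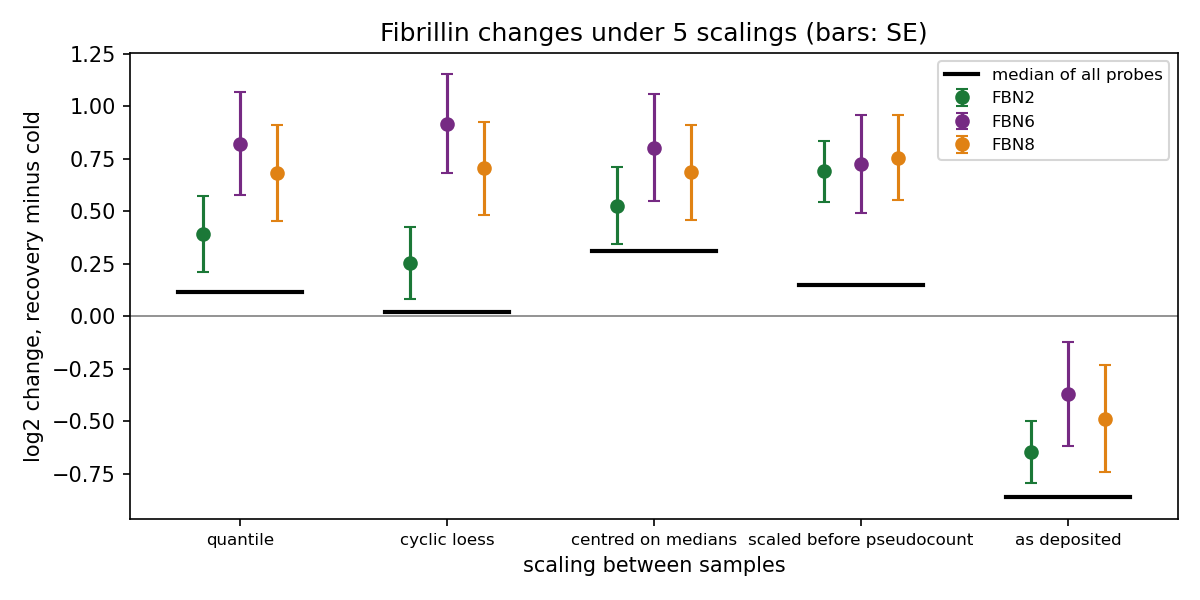
Change of FBN2, FBN6 and FBN8 from cold to recovery (log2, SE bars, n = 3 averaged pairs per group) under 5 scalings between samples, with the median of all 3439 probes as a black line. Each gene lies above the median probe under all 5, and below 0 only as deposited, where the median probe is at -0.86. The distance from the median probe is the same by construction as deposited and centred on medians.

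Under each of 5 scalings the 3 changes lay above that of the median probe, as the plot of scalings shows. Centring on medians shifts each sample as a whole, so its distances from the median probe equal those as deposited by construction. The distance of FBN6 from the median probe was between 0.49 and 0.90, that of FBN8 between 0.38 and 0.68 and that of FBN2 between 0.22 and 0.54. The sign against 0 was positive in 4 scalings and negative as deposited.

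The Arabidopsis fibrillin family, as listed here, has 14 loci, and 5 had a probe of their own. None passed as lower, against 19.3% of all probes, and the 2 that passed as higher, against 21.4%, were FBN6 and FBN8. The median change of the 5 was 0.39, against 0.11 for all probes. The other members go by their usual names, since the gene table gives these loci no symbol. FBN5 (AT5G09820), which binds the enzyme that makes the side chain of plastoquinone and is needed for plastoquinone synthesis, stood at 0.03 ± 0.26 (SE, n = 3 per group; adjusted p = 0.937). Its deposited signal was 0.162 to 0.238 in cold and 0.0258 to 0.127 in recovery. This full separation was shown in the same direction by 49.2% of all probes. The mean percentile of FBN5 was 37.3 in cold and 38.3 in recovery. FBN5 thus kept its place in the array while its signal fell with that of the median probe; it was at -0.12 with scaling before the pseudocount and at -1.16 as deposited. FBN10 (AT1G51110) was close to the lower limit of the array, with signals up to 0.0828 in cold and 0.0253 in recovery, listed at 0 in 1 and 2 of 6 samples. Its value of 0.36 ± 0.30 (adjusted p = 0.359) turned negative as deposited (-0.54), under cyclic loess (-0.073) and where scaling preceded the pseudocount (-0.076).

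A further 5 probes were listed with several fibrillin genes and no other gene. The table does not tell which of the genes gave their signal, so none is named from them. They moved in both directions, as the plot of related genes shows. Across the array, 19.3% of all probes passed as lower and 21.4% as higher. The probe listed with 4 family genes, FBN2 among them, fell by 1.12 ± 0.19 in log2 units (mean ± SE, 3 averaged pairs per group; adjusted p = 9.22e-04). Mean signals were 1.56 ± 0.258 before and 0.409 ± 0.107 after the return to 20 °C (SD, n = 3). It missed the threshold with scaling before the pseudocount (-0.49, adjusted p = 0.0540). The probe listed with 3 genes, FBN8 among them, passed as lower (adjusted p = 9.88e-04), with a signal of 0.440 ± 0.0369 in cold and 0.0212 ± 0.0249 in recovery, where 3 of 6 samples were listed at 0. Its recovery signal was below the pseudocount, and the size followed that constant: -2.04, with -2.51 at the halved and -1.56 at the doubled value. After quantile normalization the 2 probes whose lists include FBN2 or FBN8 thus passed as lower, where the single-gene probes of FBN2 and FBN8 stood at 0.39 and 0.68; the difference between the probes was not tested.

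The other 3 shared probes were listed with 2 genes each, and none of them with a member. One, from 0.802 ± 0.191 in cold to 0.220 ± 0.0219 in recovery (SD, n = 3), fell by 0.64 ± 0.21 (SE; adjusted p = 0.0319). It missed the threshold centred on medians (0.0519), with scaling before the pseudocount (0.159), without recovery sample 5 (-0.57, 0.0586), and without cold samples 3 and 4 (-0.43, 0.120) or any 1 of the 3 recovery pairs (adjusted p from 0.0669 to 0.0955). The remaining 2 were listed with the same pair of genes and were dim, with mean signals under 0.1. One of them stood at 0.89 ± 0.31 and passed as higher (adjusted p = 0.0414), but missed the threshold with the replicate block (0.0667), with scaling before the pseudocount (0.64, 0.148) and without any 1 of 5 samples (cold 2 or 5, recovery 2, 4 or 6; adjusted p from 0.0564 to 0.0839). It also missed it without samples 3 and 4 or 5 and 6 of either group (0.114 to 0.145), and was at -0.32 as deposited. The other stood at 0.19 ± 0.33 (adjusted p = 0.671) and was negative under 3 of the 5 scalings.

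**Figure D4:**
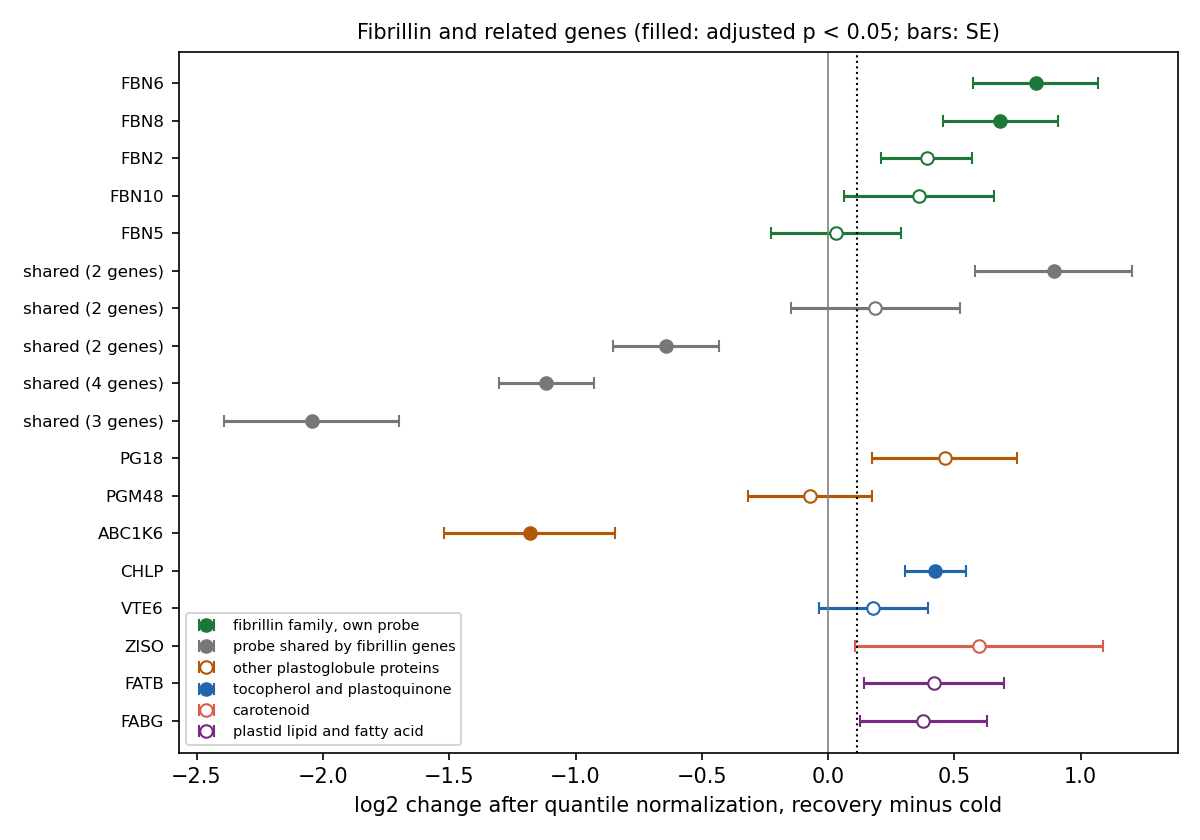
Change from cold to recovery after quantile normalization (log2, SE bars, n = 3 averaged pairs per group) for the 5 fibrillin genes with a probe of their own (green), the 5 probes shared by several fibrillin genes (grey) and the measured genes of related lists (other colours); filled symbols passed an adjusted p of 0.05, and the dotted line is the median of all probes at 0.11. FBN6 and FBN8 are among the filled symbols to the right, while 3 shared probes and ABC1K6 are filled to the left. The lowest shared probe, at -2.04, depends on the pseudocount, and FRR1, listed at 0 in all 6 recovery samples, is not drawn.

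Plastoglobules also carry kinases, dehydrogenases and other enzymes, and of 18 such loci listed 4 had a probe of their own. Of these, 2 fell, none rose and 2 did not pass, with a median change of -0.63, on an array where 19.3% of all probes passed as lower and 21.4% as higher. ABC1K6 (AT3G24190), an ABC1-like kinase, fell by 1.18 ± 0.34 (mean ± SE, 3 averaged pairs per group; adjusted p = 0.0181). Its deposited signal fell without overlap, as in 49.2% of all probes. ABC1K6 ran from 0.449 to 0.647 in cold and from 0 to 0.179 in recovery. Its fall missed the threshold with scaling before the pseudocount (-1.21, adjusted p = 0.0798), without recovery sample 1 (-1.04, 0.0509) and without cold samples 3 and 4 (-1.03, 0.0705), and it was -0.75 without recovery samples 3 and 4 (0.0366).

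FRR1 (AT1G32220), a flavin reductase-related protein, passed as lower (adjusted p = 0.00247). Its signal was 0.0733 to 0.295 in cold, and it was listed at 0 in all 6 recovery samples, so no fold is given. PG18 (AT4G13200) stood at 0.46 ± 0.29 (adjusted p = 0.223). PGM48 (AT3G27110), a metallopeptidase that promotes leaf senescence, stood at -0.072 ± 0.25 (adjusted p = 0.831), passed as lower as deposited (-1.12, 0.00426) and was listed at 0 in 2 of 6 recovery samples. Among genes of the 2 lists with a probe of their own, FBN6 and FBN8 thus passed as higher and ABC1K6 and FRR1 as lower. The others did not pass. Probes shared by several fibrillin genes passed in both directions, at -1.12, -2.04, -0.64 and 0.89. A difference between the 2 lists was not tested.

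The lipids that plastoglobules store were covered thinly. Of 10 loci for tocopherol and plastoquinone synthesis 2 were measured. CHLP (AT1G74470), the geranylgeranyl reductase that supplies phytol for tocopherol and chlorophyll, was higher by 0.42 ± 0.12 (SE, n = 3 per group; adjusted p = 0.0180). It missed the threshold as deposited (0.17, adjusted p = 0.103) and with cyclic loess (0.31, 0.0580), without the variance trend (0.0753) and without recovery samples 5 and 6 (0.0549), and was larger with scaling before the pseudocount (1.61, 3.93e-04) or centring on medians (1.35, 1.65e-05). VTE6 (AT1G78620), a kinase that recycles phytol into tocopherol, stood at 0.18 ± 0.22 (adjusted p = 0.529). ZISO (AT1G10830), the zeta-carotene isomerase and the 1 measured gene of 14 for carotenoid synthesis, stood at 0.60 ± 0.49 (adjusted p = 0.355) and was listed at 0 in 2 of 6 samples of each group.

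Of 29 loci for plastid membrane lipids and fatty acids, 2 were measured and neither passed. FATB (AT1G08510), the thioesterase that releases saturated fatty acids from their carrier, stood at 0.42 ± 0.28 (adjusted p = 0.249). FABG (AT1G24360), a ketoacyl carrier protein reductase of fatty acid synthesis, stood at 0.38 ± 0.25 (adjusted p = 0.249). None of the 9 loci listed for jasmonate synthesis in the plastid had a probe of its own, so the pathway to which FBN2 has been tied was not analysed here.

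Genes with a profile like that of each fibrillin were sought among 421 probes with 1 known locus that were never listed at 0 and were above the lower quartile of signal. Likeness was the root mean square difference over the 12 samples of normalized log2 values, each gene centred on its own mean; it is a description, and all genes share the same samples. For FBN2 the closest were LPA19 (AT1G05385), a photosystem II assembly factor, at 0.180, CSLA01 (AT4G16590), annotated as a cellulose synthase-like protein, at 0.183, and AT1G54500 at 0.192, where the median gene was at 0.466. Their own changes were 0.63, 0.36 and 0.46. For FBN6 the closest were AT3G23940 at 0.271, AT1G28150 at 0.272 and AT4G31470 at 0.275, with a median of 0.581 and changes of 0.78, 0.76 and 0.86. The sizes depended on the scaling: AT3G23940 was at 1.49 and AT4G31470 at 2.08 with scaling before the pseudocount, and both were positive as deposited (0.090 and 0.64), where FBN6 was at -0.37. The likeness was measured after quantile normalization alone. For FBN8 they were AT2G19280 at 0.243, AT2G19870 at 0.245 and again AT4G31470 at 0.248, with a median of 0.537 and changes of 0.71, 0.27 and 0.86.

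The 3 fibrillin genes were not among each other's closest genes. The difference was 0.335 between FBN2 and FBN6, 0.343 between FBN2 and FBN8 and 0.430 between FBN6 and FBN8. Of the 421 genes, 20.4% were closer to FBN2 than FBN6 was, 22.6% were closer to FBN2 than FBN8 was, and 17.1% were closer to FBN6 than FBN8 was.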

How the data were processed

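The table holds 1 signal per probe for 12 expression arrays, 6 per group. What the authors did to reach the deposited signal values (background, scaling, the meaning of 0 and 100) and any batch are not given in the sources used here. Probes were named through the platform annotation and a RefSeq gene table (TAIR10.1, names only): it lists 692 probes under 1 gene, 870 under several and leaves 1877 out, and 690 gave a locus.

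Values were taken as log2(signal + 0.0415), the added constant being the 10th percentile of positive signals, and quantile normalized (limma 3.58.1, R 4.3.3). Neighbouring samples were averaged as the choice that counts fewer samples. Their deviations from the group mean correlated at 0.34 to 0.50 in cold and -0.033 to 0.063 in recovery. Deviations from a shared mean correlate below 0 for unrelated samples, so values near 0 do not show that recovery neighbours are unpaired. The groups were compared with limma (lmFit, then eBayes with trend) over all 3439 probes with Benjamini-Hochberg adjustment and no covariate. Named were the 3 members, the measured genes of 6 related lists and the 3 genes of nearest profile per member; shared probes were added after their values were seen. The members and lists were chosen with earlier results of these data known. The procedure was also run on simulated independent normal values with a common spread. These had neither a lower limit of signal nor paired samples, so that run does not show how the procedure performs here. Alternatives covered scaling, pseudocount, dim probes, variance model, pairs, the replicate number and each sample or pair left out. Figures used matplotlib 3.10.9.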

Additional observations from a re-analysis of the deposited data

Results flagged for a closer look

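Each named gene's deposited signals were examined for a sample far from the other 5 of its group by Dixon's test at the 95% level, in 54 groups; chance marks about 1 in 20. None of the groups of FBN2, FBN6 and FBN8 was marked. Recovery sample 5 stood apart in FATB, at 0.187 against 0.0698 to 0.112 in the others, and in CSLA01, at 0.515 against 0.637 to 0.707. Recovery sample 6 stood apart in ZISO, at 0.142 against 0 to 0.0397. Recovery sample 1 stood apart in AT1G54500, at 0.735 against 0.431 to 0.544.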

How the results depend on the processing

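With 29 alternatives, FBN2, FBN6 and FBN8 each kept a positive sign in 28, all but the values as deposited. As deposited they were at -0.65, -0.37 and -0.49, and 2216 probes passed (192 higher, 2024 lower) against 1399 (735 higher, 664 lower). Of the 29, 18 left out a sample or pair under the same quantile normalization. Those that altered only the variance model, pairs or replicate block return the same estimate by design, so their sign could not change. FBN6 passed in 24 of the 29, FBN8 in 21 and FBN2 in 5. FBN2 passed as higher centred on medians (0.53), with scaling ahead of the pseudocount (0.69), and at 0.39 with 12 samples as independent or with the pair as a random effect. With a sample or pair left out, FBN6 ran from 0.66 to 0.97 and FBN8 from 0.54 to 0.78; FBN6 also lost its call without cold samples 1 and 2, cold 5 and 6 or recovery 1 and 2, and FBN8 without cold 3 and 4, cold 5 and 6, recovery 1 and 2 or recovery 3 and 4. The share of calls that were higher was 52.5% after quantile normalization, 69.8% centred on medians, 46.9% under cyclic loess and 63.1% with scaling ahead of the pseudocount.

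The change of FBN6 minus that of FBN8 was -0.030 scaled before the pseudocount and ran from -0.074 to 0.33 with samples left out. As deposited, values turned negative for FBN5 (-1.16), FBN10 (-0.54), PG18 (-0.73), VTE6 (-0.87), ZISO (-0.23), FATB (-0.75), FABG (-0.81), LPA19 (-0.45), CSLA01 (-0.46), AT1G54500 (-0.44), AT1G28150 (-0.30), AT2G19280 (-0.12), AT2G19870 (-0.92) and the 2 dim shared probes (-0.32 and -0.88). FBN10 was at -0.073 with cyclic loess and -0.076 with scaling ahead of the pseudocount, FBN5 at -0.12 in the latter, and the dimmer shared probe at -0.040 and -0.24. PGM48 was at 0.052 centred on medians, -0.48 with scaling ahead of the pseudocount and -1.12 as deposited. With samples left out FBN5 ran from -0.068 to 0.20, PGM48 from -0.39 to 0.21 and the dimmer shared probe from -0.23 to 0.48. Why the scalings differ was not tested. Averaged samples of the same number correlated at 0.056, 0.12 and -0.0050 across the groups. As deviations from group means of few values, these do not settle whether the numbers pair the samples. With the replicate block 1381 probes passed, and FBN2, FBN6 and FBN8 stayed on the same side of the threshold. Low signal limits what can be said of FBN6, FBN10 and the dim shared probes.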
